A study of Rattus norvegicus with 3 samples.

Results

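The members described here are the nuclear genes of the mitochondrial respiratory chain and of ATP synthase in rat vestibular nuclei. They were chosen by name: a gene is a member when its symbol begins with Ndufa, Ndufb, Ndufc, Ndufs, Ndufv, Sdh, Uqcr, Cox4, Cox5, Cox6, Cox7, Cox8 or Atp5. Of the 8899 genes that the arrays name through a RefSeq accession, 53 are members, measured by 61 probes. Complex I has 13 of them, complex II 3, complex III 5, complex IV 13 and complex V, the ATP synthase, 15. The other 4 are assembly factors (Ndufaf3, Ndufaf4, Ndufaf7 and Sdhaf2), which help to build complexes I and II and are not subunits of them. The deposited array data held no gene-name column, so the accession alone decided membership.

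The respiratory chain is the set of protein complexes in the inner mitochondrial membrane that carries electrons from food-derived carriers to oxygen. Complex I takes electrons from NADH and complex II from succinate, both pass them to ubiquinone, complex III hands them on to cytochrome c, and complex IV reduces oxygen to water. Complexes I, III and IV pump protons while doing so, and ATP synthase lets the protons flow back and makes ATP. Neurons spend much of this ATP on ion pumping and synaptic transmission, and the vestibular nuclei hold neurons that fire without pause.

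The study followed vestibular compensation, the recovery of balance after the inner ear's balance organ on 1 side is lost. The animals were Sprague-Dawley rats, adult males weighing from 200 to 250 g, whose left labyrinth was removed, and the vestibular nuclei of that same side were taken 1 day or 7 days later. Controls carried a sham operation according to the sample labels, while the protocol text calls them normal rats, and the sources used here do not say which side was taken from them. They are called sham below. The labels name nuclei from 3 rats per group, since 1 nucleus held too little material, and each group has a single array, which points to RNA pooled over the rats.

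All 3 arrays lay on 1 slide, at position 4 (sham), 3 (day 1) and 2 (day 7), so position on the slide and group cannot be told apart. No group has a replicate array, so conditions cannot be tested, the spread between animals is unknown, and every difference below is one between arrays. A level is a probe's background-subtracted intensity divided by that array's 75th percentile, as log2. The percentile was 5692 (sham), 5242 (day 1) and 5676 (day 7) intensity units. A level of 0 therefore stands at that percentile, and levels of different probes are not compared as amounts of RNA. They serve only to call genes bright or dim, to sort them by brightness and to form marker sums, in which bright probes weigh most. A member counts as measured in a comparison when neither array had its brightest probe saturated or too near background.

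Measurement error can be judged in part from the arrays themselves. Probes printed on 10 spots had a median log2 SD between spots of 0.11 on the sham array, 0.089 at day 1 and 0.099 at day 7, but every member was read on 1 spot per probe. Different probes of the same gene differed more. Over 1124 genes with a second measured probe the log2 folds of day 1 against sham differed by a median of 0.34, and over 1106 genes those of day 7 against sham differed by a median of 0.41. Only 6 of the 53 members have more than 1 probe.

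The labelled tissue was checked against marker genes. Of 16 neuronal markers on the array, 16, 15 and 16 were well above background in sham, at day 1 and at day 7, and all 9 astrocyte and 10 oligodendrocyte markers were so on each array. Hoxa2, a hindbrain position gene, had levels of 0.57 (sham), 0.58 (day 1) and -7.64 (day 7), the last not well above background. Of 5 cerebellar markers, 4, 3 and 2 were well above background in sham, at day 1 and at day 7, and their summed level, in multiples of the 75th percentile, was 5.22, 5.84 and 7.14. Gabra6, a granule cell gene, was not well above background on any array, while Pcp4 and Calb1 were so on all 3. Those 2 were higher at day 7 than in sham, by 0.28 and 0.75 in log2. Zic1 and Neurod1 went the other way, at least 6.64-fold and 1.76-fold lower at day 7 than in sham. At day 1 Zic1 was higher than sham (1.16) and Neurod1 at least 1.81-fold lower. Of 14 striated muscle markers, 10, 11 and 10 were above background, and their summed level was 0.913 (sham), 1.91 (day 1) and 4.20 (day 7).

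The DNA just before the start of the members' genes shows what many of them share. In the RefSeq promoter table of the GRCr8 assembly, 47 of the 53 members have an entry, and the 250 bases before the start were searched on both strands for short motifs of factors known to act on mitochondrial genes. The palindrome of nuclear respiratory factor 1 (NRF1), GCGCA followed by its reverse complement, was in 5 of the 47 (10.6%), against 1.03% of 19004 protein-coding promoters. The shorter NRF1 core TGCGCA, which can overlap the palindrome where the flanking base fits, was in 13 (27.7% against 7.99%). The core CCGGAAG of ETS factors, among them GABP, was in 14 (29.8% against 9.52%), and AAGGTCA, a core of estrogen-related receptor sites, was in 5 (10.6% against 3.21%). AAGATGGC, part of YY1 sites, was in 2 (4.26% against 1.71%). TGACGTCA, the cAMP response element, was in 1 (2.13% against 2.03%), and the SP1 core GGGCGG, common in all promoters, was in 20 (42.6% against 40.3%). The muscle-related motifs of MEF2 (CTA and TAG around any 4 bases) and CAGCTG (a myogenic E-box) were in 2 (4.26% against 3.16%) and 7 (14.9% against 11.9%). Median GC content was 56.8% in the members and 54.8% in all these promoters. A match describes letters, not a bound site.

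The windows of 6 members are shown, for the members with the largest differences, for Cox8a beside its muscle counterpart Cox8b, and for Atp5me, which holds NRF1, ETS and YY1 letters together. Each is the 250 bases before the start, 5′ to 3′ on the gene's strand, from RefSeq's GRCr8 table, with the motif letters above in capitals on whichever strand they match. The windows are chr1:205408274-205408523, minus strand (Cox8b), chr1:213833624-213833873, minus strand (Cox8a), chr18:73567287-73567536, plus strand (Atp5f1a), chr1:184598990-184599239, plus strand (Uqcrc2), chr2:47794915-47795164, minus strand (Ndufs4) and chr14:1464610-1464859, plus strand (Atp5me).
Cox8b: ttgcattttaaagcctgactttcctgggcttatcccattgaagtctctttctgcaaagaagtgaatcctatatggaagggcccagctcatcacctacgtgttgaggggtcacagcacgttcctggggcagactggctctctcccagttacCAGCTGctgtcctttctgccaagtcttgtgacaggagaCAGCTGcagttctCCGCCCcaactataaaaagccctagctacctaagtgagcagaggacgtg
Cox8a: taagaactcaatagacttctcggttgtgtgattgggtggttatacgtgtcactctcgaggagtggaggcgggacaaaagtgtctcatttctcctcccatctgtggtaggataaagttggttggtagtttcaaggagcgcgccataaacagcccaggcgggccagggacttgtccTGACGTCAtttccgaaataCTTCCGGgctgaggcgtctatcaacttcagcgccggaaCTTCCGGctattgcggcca
Atp5f1a: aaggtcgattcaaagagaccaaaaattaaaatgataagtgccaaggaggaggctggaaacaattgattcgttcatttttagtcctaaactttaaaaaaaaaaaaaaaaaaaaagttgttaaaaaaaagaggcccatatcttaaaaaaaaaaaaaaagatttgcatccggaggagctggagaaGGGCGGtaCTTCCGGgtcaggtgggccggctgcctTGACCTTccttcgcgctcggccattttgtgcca
Uqcrc2: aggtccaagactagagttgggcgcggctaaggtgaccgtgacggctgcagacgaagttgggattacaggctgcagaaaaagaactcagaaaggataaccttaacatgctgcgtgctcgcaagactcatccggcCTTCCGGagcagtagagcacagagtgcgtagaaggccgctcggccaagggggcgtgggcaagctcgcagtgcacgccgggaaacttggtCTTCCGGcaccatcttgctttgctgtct
Ndufs4: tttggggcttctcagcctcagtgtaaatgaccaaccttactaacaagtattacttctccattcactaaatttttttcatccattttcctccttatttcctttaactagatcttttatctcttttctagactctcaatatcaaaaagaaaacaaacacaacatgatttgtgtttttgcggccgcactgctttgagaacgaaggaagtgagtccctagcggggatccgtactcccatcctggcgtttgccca
Atp5me: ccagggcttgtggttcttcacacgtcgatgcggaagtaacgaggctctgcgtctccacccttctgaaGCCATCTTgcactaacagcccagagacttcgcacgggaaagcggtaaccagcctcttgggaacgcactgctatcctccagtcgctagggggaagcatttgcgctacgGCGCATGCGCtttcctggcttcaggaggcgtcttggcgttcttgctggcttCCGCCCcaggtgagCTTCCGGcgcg

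Cox8b, Atp5f1a, Uqcrc2 and Ndufs4 were each at least 2-fold lower than sham at day 7. The window of Ndufs4 held none of the listed motifs, so no motif could be in all 4 windows. ETS letters were in those of Uqcrc2 and Atp5f1a, and SP1 letters in those of Cox8b and Atp5f1a. Cox8b holds the E-box letters at 100 to 95 and 62 to 57 bases before the start and SP1 letters at 49 to 44, whereas Cox8a holds ETS letters at 57 to 51 and 19 to 13 and cAMP response element letters at 76 to 69. Uqcrc2 holds ETS letters at 117 to 111 and 28 to 22. Atp5f1a holds SP1, ETS and estrogen-related receptor letters at 68 to 63, 60 to 54 and 33 to 27.

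**Figure D1:**
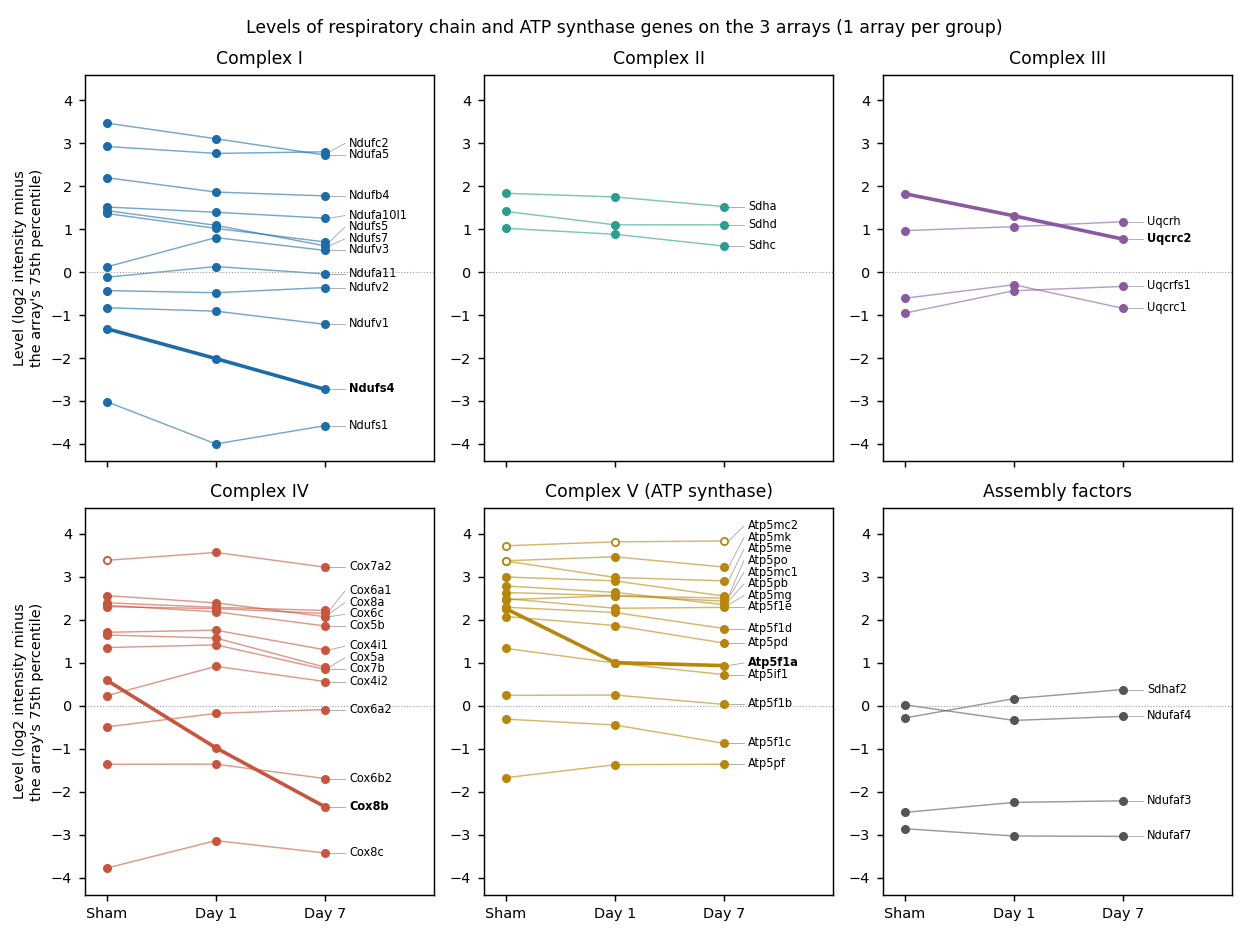
Level of the members (y axis, log2 relative to the 75th percentile of the array, dotted line at 0) on the sham, day 1 and day 7 arrays, in a panel per complex, with 1 point per array. Thick lines mark the 4 members at least 2-fold different from sham, open points mark saturated spots, and 2 members are not drawn, Uqcrq, which was not well above background, and 1 that is not reported singly; Cox8b goes from 0.59 to -2.35.

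At 7 days the members as a group were slightly lower than in sham, and few differed by much. Of 49 measured members, 37 were below 0 on the log2 scale, against 46.7% of 6261 genes, and the median log2 fold was -0.31, against 0.05 over all genes. At least 2-fold lower were 4 members (Cox8b, Ndufs4, Atp5f1a and Uqcrc2), which is 4 of 49 beside 5.73% of all genes, and at least 2-fold higher was none, beside 11.1% of all genes. More than the 0.41 by which 2 probes of a gene typically differ were 22 members lower (all genes 19.6%) and 2 higher (all genes 30.8%). Most members were thus less than 2-fold from sham.

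At day 1 the difference from sham was smaller. Of 49 measured members, 33 were below 0 (49.9% of 6292 genes), the median was -0.11 (0.00 over all genes), 2 were at least 2-fold lower (4.37% of all genes), Cox8b and Atp5f1a, and none was at least 2-fold higher (8.26%). Lower by more than the 0.34 of typical probe disagreement were 10 (21.7% of all genes), and higher by more were 5 (28.0%). Between day 1 and day 7, 39 of 51 measured members were below 0 (46.4% of 6142 genes), with a median of -0.24 (0.04 over all genes), 1 at least 2-fold lower (5.32%) and none at least 2-fold higher (6.56%). Comparisons with sham share the sham array, so they are not independent of each other. From high to low, 27 of the 49 members measured on all 3 arrays ran sham, day 1, day 7, an order that 19.2% of 6047 genes had.

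Bright genes were below 0 at day 7 more often than dim ones, and most members are bright. With genes split by level into quartiles, in the brightest quartile of all genes 61.7% were below 0 at day 7 against sham, with a median of -0.09, while in the dimmest quartile 33.5% were, with a median of 0.40. The brightest quartile held 31 of the 49 members, of which 27 were below 0, with a median of -0.43 and 2 at least 2-fold lower (2.55% of the genes of that quartile). At day 1 it also held 31, of which 25 were below 0 (60.9% of its genes), with a median of -0.14 beside -0.06 for all its genes. In the third quartile, members and all genes had medians of -0.21 and -0.01 at day 7 over 13 members, and of 0.01 and -0.04 at day 1, where 5 of 13 members were below 0 (54.2% of its genes).

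**Figure D2:**
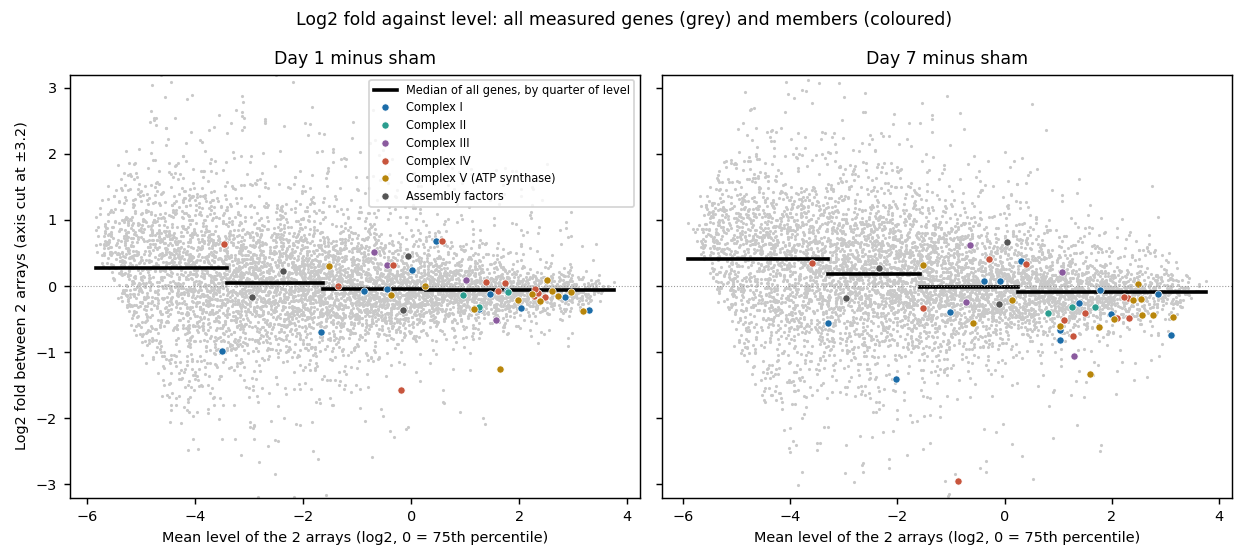
Log2 fold (y axis) against the mean level of the 2 arrays (x axis, log2) for every measured gene (grey) and every measured member (coloured by complex), day 1 minus sham on the left and day 7 minus sham on the right. Black bars are the median of all genes in each quartile of level; on the right most members lie at the bright end, below the bar at -0.09.

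Complex I, the entry point for NADH, had a median log2 fold of -0.39 at day 7 and -0.16 at day 1, with 10 and 11 of its 13 measured members below 0. Of all genes, 46.7% were below 0 at day 7 and 49.9% at day 1. In the brightest quartile of all genes these shares were 61.7% and 60.9%. The counts of the other complexes stand beside the same shares. Ndufs4, an accessory subunit of the NADH-oxidising arm whose loss causes Leigh syndrome, had levels of -1.32 (sham), -2.01 (day 1) and -2.73 (day 7). Its day 7 value was 2.66-fold below sham (-1.41), and its day 1 value lay between the others (-0.70). RefSeq lists a pseudogene copy of Ndufs4, and cross-hybridization to it was not tested. Ndufs1, the largest iron-sulfur subunit of that arm, was dim, with levels of -3.02, -4.00 and -3.57, so that day 1 was the low array (-0.98, 1.98-fold). The flavoprotein subunits of this arm did not share 1 direction. Ndufv1, which binds the flavin that accepts electrons from NADH, had levels of -0.83, -0.91 and -1.22. Ndufv2 had -0.43, -0.48 and -0.36, so its arrays did not differ beyond the typical disagreement of probes. Ndufv3 was higher after surgery, with 0.12 in sham, 0.80 at day 1 and 0.50 at day 7. Its day 7 difference (0.38) was within the typical disagreement of probes.

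In the arm of complex I that reduces ubiquinone, Ndufs7 and Ndufa5 were lower on the arrays after surgery. Ndufs7, which carries the last iron-sulfur cluster before ubiquinone, had levels of 1.43 (sham), 1.09 (day 1) and 0.61 (day 7), a difference of -0.82 at day 7. Ndufa5, an accessory subunit, had 3.47, 3.11 and 2.72 (-0.75 at day 7). Among membrane-arm accessory genes, Ndufs5 (1.36, 1.02 and 0.70) and Ndufb4 (2.20, 1.86 and 1.77) were lower after surgery. Ndufc2 (2.93, 2.76 and 2.80) and Ndufa11 (-0.12, 0.13 and -0.04) were near sham. A second probe of Ndufc2 gave log2 folds of 0.28 at day 1 and -0.33 at day 7, against -0.16 and -0.12 by the brighter probe. Ndufa10l1, a gene similar to the complex I subunit Ndufa10, was at -0.26 at day 7 by its brightest probe and at -0.17 and -0.52 by its other probes.

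Complex II, which is also an enzyme of the citric acid cycle, was represented by 3 genes, all slightly lower. Sdha, the flavoprotein that oxidises succinate, had levels of 1.84 (sham), 1.75 (day 1) and 1.53 (day 7). The membrane anchors Sdhc (1.02, 0.88 and 0.61) and Sdhd (1.41, 1.10 and 1.10) were in the same range of difference. Their log2 folds at day 7 lay between -0.41 and -0.31, each within or close to the typical difference of 2 probes.

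Complex III was mixed. Uqcrc2, a core protein of the complex on the matrix side, had levels of 1.83 (sham), 1.31 (day 1) and 0.77 (day 7), and was 2.08-fold below sham at day 7 (-1.06). With quantile normalization that difference was -0.99, just short of 2-fold, which left 3 members at least 2-fold lower at day 7. Its partner core protein Uqcrc1 had -0.61, -0.29 and -0.84, highest at day 1 and lowest at day 7. Uqcrfs1, the Rieske iron-sulfur protein that passes electrons from ubiquinol to cytochrome c1, went the other way, with -0.95, -0.43 and -0.33, and was at 0.62 at day 7. Uqcrh, the hinge protein, had 0.97, 1.06 and 1.17. Uqcrq was not well above background in sham or at day 7, its day 1 spot was marked as an outlier, and no fold is given. The median over the 4 measured members was 0.20 at day 1 and -0.01 at day 7, with 1 and 2 of them below 0.

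**Figure D3:**
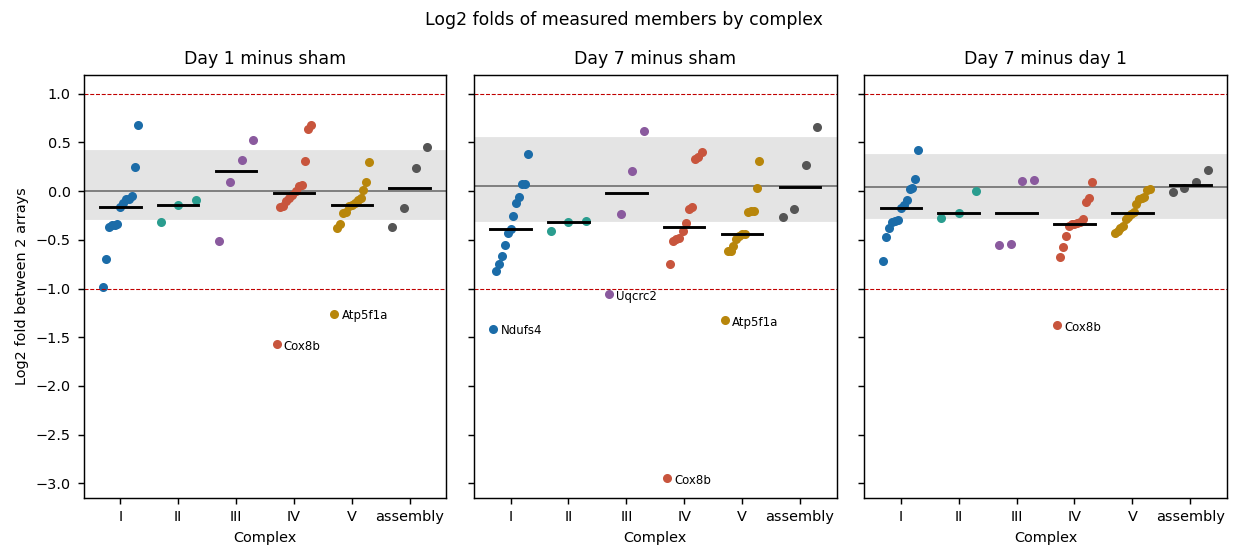
Log2 folds of measured members (points, y axis) by complex (x axis) for each pair of arrays, with the median of each complex as a black bar. The grey line and band are the median and quartiles of all measured genes and the dashed red lines stand at 2-fold; at day 7 the medians of complexes I, II, IV and V lie between -0.45 and -0.31, below the lower edge of the grey band.

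Complex IV, cytochrome c oxidase, had 12 measured members with a median of -0.02 at day 1 and -0.37 at day 7. Below 0 were 6 at day 1 and 9 at day 7, beside 49.9% and 46.7% of all genes. Several of the ubiquitous structural subunits were nearly flat at day 1 and lower at day 7. Cox5a, which lies on the matrix side, had levels of 1.65 (sham), 1.58 (day 1) and 0.90 (day 7), a difference of -0.75 at day 7. Cox7b had 1.36, 1.42 and 0.85, and Cox4i1, the common form of subunit 4, had 1.71, 1.76 and 1.30. In these 3 genes the sham and day 1 arrays lay close together and the day 7 array was low. Cox6c was at -0.49 at day 7. Cox6a1 was at -0.18 and Cox8a at -0.16, both within the typical difference of 2 probes. Cox5b was at -0.48 by its brighter probe (2.34, 2.19 and 1.86) and at -1.16 by the other (2.00, 1.64 and 0.85), so its probes agreed in direction but not in size. Cox7a2 was saturated in sham, and its level of 3.23 at day 7 was at least 1.12-fold below the saturated sham value. At day 1 it had 3.57, and no fold against sham is given.

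The tissue-restricted forms of complex IV subunits differed among themselves. Cox8b, the form of subunit 8 found in heart, skeletal muscle and brown fat, had the largest difference of any member. Its levels were 0.59 (sham), -0.98 (day 1) and -2.35 (day 7), or 8596, 2660 and 1110 intensity units. That made it 2.98-fold below sham at day 1 and 7.72-fold at day 7, where 0.56% of all measured genes had a lower log2 fold, and it rests on 1 probe on 1 spot per array. Cox6a2, the heart and muscle form of subunit 6a, was not lower (-0.49, -0.18 and -0.09). The summed level of muscle markers given above was higher on the arrays where Cox8b was low. Of 10 measured muscle markers, 3 were below sham at day 1 and 2 at day 7, beside 49.9% and 46.7% of all genes. Tnni3 (from a dim sham level of -5.46) was at 3.90 and 6.25 at day 1 and day 7. Tnnt1 was at 2.42 and 3.95, while Acta1 was at -0.14 and -0.47. The part of the muscle markers in the Cox8b result was not tested.

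Cox4i2, the form of subunit 4 that is raised by low oxygen in several tissues, had levels of 0.23, 0.92 and 0.56. It was higher than sham by 0.68 at day 1 and by 0.33 at day 7, the latter within the typical difference of 2 probes. Cox8c and Cox6b2 are mainly known from testis. Cox8c was dim and followed the same course as Cox4i2 (-3.78, -3.14 and -3.43), and Cox6b2 had -1.36, -1.36 and -1.70. None of these 3 was 2-fold different from sham.

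Complex V had a median of -0.14 at day 1 and -0.45 at day 7 over 13 measured members, with 10 and 11 below 0 (49.9% and 46.7% of all genes). In the F1 head, which makes ATP, all 5 subunits were below sham at day 7. Atp5f1a, the alpha subunit, had levels of 2.26 (sham), 1.00 (day 1) and 0.94 (day 7), or 27321, 10516 and 10854 intensity units. It was 2.39-fold below sham at day 1 and 2.51-fold at day 7, so sham stood apart and the days after surgery were alike. The beta subunit Atp5f1b, which carries the catalytic sites and pairs with alpha in the head, had 0.24, 0.25 and 0.03, a difference of -0.21 at day 7. The rotor subunits gamma (Atp5f1c, -0.31, -0.45 and -0.87), delta (Atp5f1d, 2.29, 2.17 and 1.80) and epsilon (Atp5f1e, 2.50, 2.27 and 2.29) were at -0.56, -0.50 and -0.20 at day 7. Subunits of 1 head were thus measured at unlike differences, from -1.33 to -0.20.

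In the membrane part and the stalk of ATP synthase, 7 of 9 members could be measured against sham, and 5 of them were below 0 at day 7. The stalk subunits Atp5pd (2.08, 1.87 and 1.46) and Atp5po (3.00, 2.91 and 2.55) were at -0.62 and -0.45 at day 7, and Atp5pb was at -0.20. Atp5pf, another stalk subunit, was higher (-1.67, -1.37 and -1.36), though within the typical difference of 2 probes at both times. Atp5me and Atp5mg, which help to pair ATP synthases into rows along the cristae, were at -0.46 and -0.44. Atp5mc1, a gene for the c-ring that turns with the proton flow, was at 0.04 (2.47, 2.56 and 2.51). Atp5mc2, another c-ring gene, was saturated on all 3 arrays and has no fold. Atp5mk, a small accessory subunit, was saturated in sham and at least 1.11-fold lower at day 7. Atp5if1, the inhibitor that stops ATP synthase from running backwards, had 1.34, 0.99 and 0.72 (-0.61 at day 7).

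The 4 assembly factors had medians of 0.03 at day 1 and 0.05 at day 7. Sdhaf2, which puts flavin into Sdha, was at 0.45 at day 1 and 0.66 at day 7, and a second probe gave 0.78 at both times. Ndufaf3 was at 0.23 and 0.27, and Ndufaf7 at -0.17 and -0.18. Ndufaf4, which works with Ndufaf3 on early complex I, was at -0.36 and -0.27 by its brightest probe but at 0.60 and 0.83 by the next and at 0.74 and 0.97 by the last, so its direction is not settled. The 45 measured structural members without these factors had a median of -0.39 at day 7, with 35 below 0 (46.7% of all genes).

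Other genes of energy metabolism were taken from preset lists. At day 7, pyruvate dehydrogenase and citric acid cycle genes, which supply NADH and succinate, had a median of -0.36 with 13 of 15 below 0 and none past 2-fold, from Idh3b (-0.73) to Idh2 (0.08). Mitochondrial protein import genes had -0.34 with 13 of 15 below 0, from Timm21 (-0.68) to Tomm40 (1.15). Tomm40 was dim, with a level of -5.93 in sham, and was not well above background at day 1. Glycolysis genes had -0.21 with 13 of 15 below 0 and 2 at least 2-fold lower, Hk2 (-2.37) and Tpi1 (-1.63). Electron carriers and coenzyme Q genes had -0.20 over 16 genes, with Etfa (-1.39) and Etfdh (-1.30), which feed electrons from fatty acid oxidation into the chain, at least 2-fold lower. Of the same list, Dhodh (1.39) and Coq8b (1.10) were at least 2-fold higher. Mitochondrial ribosomal proteins had -0.14 over 23 genes, carriers and channels for adenine nucleotides and phosphate -0.12 over 12, assembly factors outside the prefixes -0.03 over 7, and cytosolic ribosomal proteins -0.10 over 61. Those cytosolic ribosomal genes are bright as well, and 40 of the 61 were below 0, beside 61.7% of the brightest quartile of all genes.

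At day 1 the medians of these lists ran from -0.21 (assembly factors outside the prefixes) to -0.02 (citric acid cycle). Of all genes, 4.37% were at least 2-fold lower at day 1 and 8.26% at least 2-fold higher. Lower by at least 2-fold were 3 electron carrier and coenzyme Q genes, with Dhodh (-1.79) and Etfdh (-1.56) the lowest, and the glycolytic enzyme Pfkl (-1.10). Dhodh was dim, with levels of -3.45 (sham), -5.25 (day 1) and -2.06 (day 7). Higher by at least 2-fold were Hk2 (1.92), Mrpl49 (1.04) and Rpl37al2 (1.24).

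Genes that regulate mitochondrial genes did not move as 1 group, with medians of -0.20 at day 1 over 15 and -0.10 at day 7 over 14. Below 0 were 11 at day 1 and 8 at day 7, beside 49.9% and 46.7% of all genes. Tfb1m, a mitochondrial ribosomal RNA methyltransferase, was at -1.61 at day 1 and -0.98 at day 7. It was dim, with levels of -3.62 (sham), -5.23 (day 1) and -4.60 (day 7). Esrrg, an estrogen-related receptor of oxidative tissues, had levels of -1.82 (sham) and -3.19 (day 1), a difference of -1.38. At day 7 it was not well above background and at least 13.2-fold lower than sham. Esrrb, its relative, was at -0.36 and -1.62. Ppargc1a, the coactivator PGC-1alpha that drives respiratory genes, was named here after its values were seen. It had levels of -1.38, -2.30 and -2.24, a difference of -0.92 and -0.87. Ppargc1b, of the same list, was at -0.92 at day 1 and 0.56 at day 7. Tfam, which packs mitochondrial DNA and takes part in its transcription, was also named after its values were seen. It was at 0.41 and 0.53, and Mterf1 at 0.50 and 0.98.

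**Figure D4:**
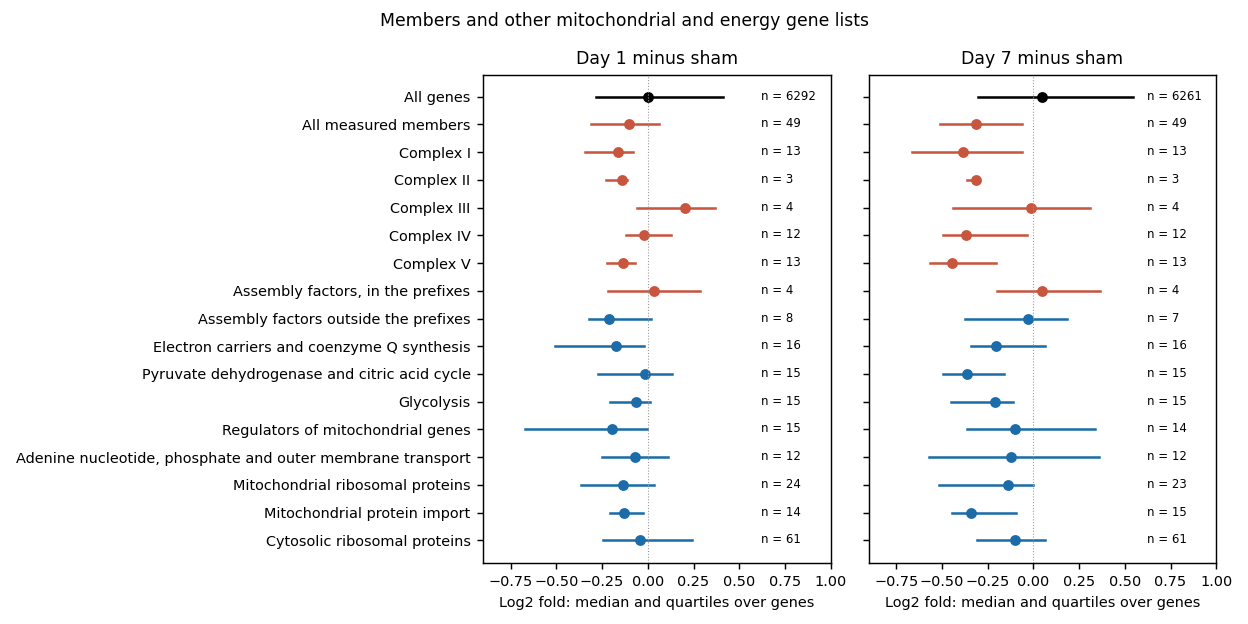
Median (point) and quartiles (line) of log2 folds over the measured genes of each list (x axis), day 1 minus sham on the left and day 7 minus sham on the right, with the number of measured genes beside each. All genes are in black, members in red and other lists in blue; at day 7 the members' median is -0.31 and that of citric acid cycle genes -0.36, beside 0.05 for all genes.

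Markers of other cell types and of neurons also differed between the arrays. The summed level of 16 neuronal markers was 58.7 (sham), 57.5 (day 1) and 46.3 (day 7), in multiples of the 75th percentile. Of 15 measured, 4 were at least 2-fold lower at day 7, with Slc6a5 (-5.26) and Nefh (-2.30) the lowest. At least 2-fold higher were 2, Gad1 (3.39, from a dim sham level of -5.26) and Gad2 (1.30). The sum of 10 oligodendrocyte markers was 32.2, 27.9 and 23.1, and that of 9 astrocyte markers was 24.1, 25.3 and 23.6. Microglia and macrophage markers summed to 10.3, 5.81 and 12.8, the day 1 sum without P2ry12, whose spot was marked as an outlier there, and red blood cell markers to 16.0, 16.3 and 12.9. The sums of neuronal, oligodendrocyte, astrocyte and red blood cell markers were lowest on the day 7 array. Higher there than in sham were 6 of 15 measured neuronal, 1 of 10 oligodendrocyte, 4 of 8 astrocyte and 2 of 4 red blood cell markers. The astrocyte sum includes Gja1, saturated on all 3 arrays, and the neuronal sum includes Syp, saturated in sham. Choroid plexus markers summed to 0.711, 0.585 and 1.26, and endothelium and pericyte markers to 3.79, 5.08 and 5.02. The part of all these markers in the members' result was not tested. In bulk tissue, fewer cells of a type and less RNA per cell cannot be told apart.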

How the data were processed

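Per the file headers, the authors read 1-colour Cy3 arrays with Agilent Feature Extraction 10.7.3.1. The deposited intensity per spot is linear and background-subtracted, with no scaling between arrays. Other deposited columns are flags per spot (other values). The authors' series table equals the deposited intensity within 0.1% for 99.7% of values.

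Spots flagged as outliers (163, 224 and 193) were left out, values were scaled to each array's 75th percentile, taken as log2, and spots of a probe averaged (Python 3.11.15, pandas 2.3.3). Probes were named through RefSeq accessions of GRCr8, which matched 10768 of 41012. A gene's probe is that with the highest mean over the arrays. The share of spots well above background was 81.3% in the sham array, 77.3% at day 1 and 76.9% at day 7. Calls are at 2-fold, without a test. The array data held no gene-name column and, in the normexp alternative (limma 3.58.1), spot medians stood in for means. The members and lists were chosen with earlier results of these data known. Named genes are members past 2-fold, the extremes and defining subunits of each complex, tissue forms, saturated members and members with disagreeing probes; of other lists, up to 2 at each end, except those identified in the text. The counts and medians cover all measured members, of which 1 is not reported here by itself. The procedure was tested on simulated copies of the sham array with known folds, which checks the computation and not the error of real arrays. Many members (29) have pseudogene copies in RefSeq that could cross-hybridize.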

Additional observations from a re-analysis of the deposited data

How the results depend on the processing

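Alternatives were 4 scalings, normexp background correction, 2 choices of probe, 2 filters, saturated probes kept, outlier spots kept, structural subunits only and a 1.5-fold limit; leaving out Cox8b was added after seeing the data. The members' median stayed below 0 under all 12 alternatives at day 7 against sham (from -0.44 to -0.17) and at day 7 against day 1 (from -0.28 to -0.12), and under 11 of 12 at day 1 (from -0.22 to 0.29). The exception, and the only reversal of a median, was the second brightest probe at day 1 (0.29), which only 5 measured members have. With it the day 7 median moved to -0.17. Counts at least 2-fold lower were then 0 at day 1 (5.5% of all genes with such a probe), 1 at day 7, Cox5b (8.3%), and 0 at day 7 against day 1 (7.6%). The other medians that moved were those with no scaling, at day 1 (-0.22) and day 7 against day 1 (-0.12), where the median of all genes moved too (-0.12 and 0.15), and with median scaling at day 7 (-0.44, all genes -0.08). Minus the median of all genes, the members' median lay between -0.47 and -0.14 at day 7 and between -0.19 and 0.32 at day 1, where it was -0.11 as reported, -0.05 with quantile normalization and -0.04 over brighter genes only. With each of the 4 other scalings 3 members were at least 2-fold lower at day 1 (from 5.28% to 5.66% of all genes). With quantile normalization 3 were so at day 7 (6.6% of all genes), where Uqcrc2 (-0.99) was no longer among them. At 1.5-fold, 4 members were lower at day 1 (11.7% of all genes), 10 at day 7 (13.1%) and 3 at day 7 against day 1 (12.3%). Higher at that limit were 3 at day 1 (18.3%) and 2 at day 7 (23.7%). Without Cox8b, 1 was at least 2-fold lower at day 1 (4.37% of all genes), 3 at day 7 (5.73%) and 0 at day 7 against day 1 (5.32%). With no scaling Atp5f1a reversed between day 1 and day 7 (0.046). Single spots, single arrays and saturation limit every value. No paired analysis was possible because each group has 1 array.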
